A study of Coturnix japonica with 16 samples.

Results

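Liver RNA of Japanese quail (Coturnix japonica) given 5 mg/kg of ethinylestradiol was compared with that of quail given 0.5 mg/kg, a comparison of the upper with the lower of the study's dose levels. It used 10 of the 16 sequenced birds, 5 at each dose, taken by their labelled dose, and the 6 solvent birds took no part in the contrast. All 16 birds were 12 weeks old, lived under a day of 8 light and 16 dark hours, went without food for 16 hours and were then gavaged once, at 4 mL/kg. Solvent birds received corn oil and the others an ethinylestradiol solution. Left-lobe liver was sampled, and each library carries the code of its own bird. The sources used here do not give the birds' sex or the time between dosing and sampling.

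Ethinylestradiol is a synthetic estrogen that resists breakdown in the liver and binds the estrogen receptors ESR1 and ESR2. In egg-laying vertebrates estrogen acting through these receptors makes hepatocytes secrete yolk precursors, egg envelope proteins and very low density lipoprotein. Fasted liver also answers to glucagon, which acts through cyclic AMP and favours fat burning over storage, and to glucocorticoids. Both hormones favour glucose output. Genes of these programmes are described below at both doses, with the solvent birds beside many of them for reference.

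Library totals ran from 15173021 to 30106089 estimated counts at the lower dose and from 15825784 to 46192737 at the higher. The tissue check was met: albumin (ALB) took 8.24 to 13.7% of counts at 0.5 mg/kg and 8.72 to 11.8% at 5 mg/kg, mitochondrial transcripts took 8.64 to 12.0% and 7.03 to 13.7%, and the 6 exocrine pancreas markers in the table summed to at most 0.456 CPM (counts scaled to library size) in any dosed bird. Expression of 573 genes on the Z chromosome separated birds whose code number was 1 to 3 from those numbered 4 to 6, with median deviations of 0.14 to 0.25 and of -0.36 to -0.17 on the log2 scale. Both doses held 3 birds of the first class and 2 of the second, and log2 differences within each class are given beside the pooled ones for leading genes. The 5 mg/kg birds differed more among themselves than the 0.5 mg/kg birds: over 11486 genes at 1 CPM or more in both groups the median SD of log2 CPM was 0.33 against 0.27, and the SD was larger at 5 mg/kg in 65.2% of genes. The first principal component held 18.3% of the variance. On it 5 mg/kg replicates 1 to 5 lay at -40.7, -5.71, -19.7, 28.1 and -40.4, and the 0.5 mg/kg birds lay between -3.04 and 24.5.

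No gene passed the threshold of an adjusted p of 0.05 between the doses, in either direction. Of 12830 genes tested with edgeR's quasi-likelihood test, 0 were higher (0%) and 0 lower (0%), and the lowest adjusted p was 0.230. At an unadjusted p under 0.05 there were 871 genes (6.79%), where evenly spread p-values would give 641.5. These divided into 488 higher (3.80%) and 383 lower (2.99%), while limma-voom, which also called 0 genes, had 410 higher and 511 lower at that level. DESeq2 called 37 of 13383 genes (0.276%), 14 higher (0.105%) and 23 lower (0.172%), and 36 of the 37 were among the genes edgeR tested. In 90 genes (0.701%) every 5 mg/kg bird lay above every 0.5 mg/kg bird in CPM, and in 72 genes (0.561%) every one lay below. Over all genes, log2 fold changes were above 0 in 53.0% and below 0 in 47.0%, with a median of 0.02.

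The precision of the comparison differed between genes. For the 11920 genes with a mean of at least 1 CPM at either dose, the median half-width of the 95% interval of the log2 fold change was 0.45, equal to 1.37-fold either way. The half-width was under 1 log2 unit, a doubling, in 91.1% of them. These intervals are per gene and are not adjusted for the number of genes. Without 5 mg/kg replicate 4, 1373 genes had an unadjusted p under 0.05, against 871 with it, and 0 passed the adjusted threshold. Without 5 mg/kg replicates 1 and 5 there were 583, and 0 passed.

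**Figure D1:**
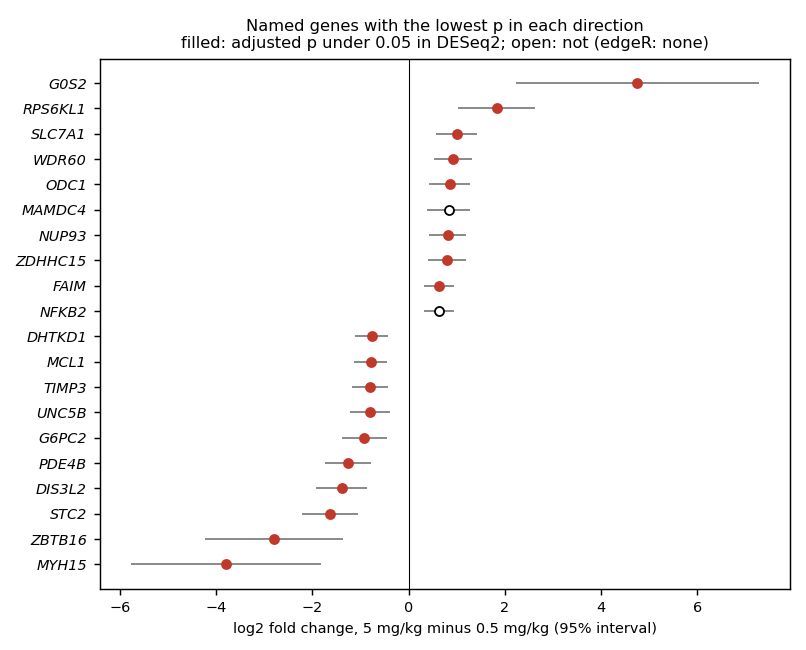
Log2 fold change between 5 and 0.5 mg/kg (x axis, positive where 5 mg/kg was higher) with its 95% interval for the 10 higher and 10 lower named genes with the lowest p. Filled points had an adjusted p under 0.05 in DESeq2 and open points did not. Of the 20, chosen for their low p, 18 are filled (0.276% over all genes), and 0 passed with edgeR. G0S2 and MYH15 have the widest intervals.

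The estrogen receptors differed in level between the doses to different degrees. ESR2 was at 93.8, 128, 74.0, 92.7 and 81.2 CPM in the 0.5 mg/kg birds (replicates 1 to 5) and at 24.0, 43.4, 19.9, 66.8 and 14.2 CPM in the 5 mg/kg birds. Every bird at the higher dose therefore lay below every bird at the lower dose, with 5 mg/kg replicate 4 nearest to them. The means were 94.0 ± 20.9 and 33.6 ± 21.5 CPM (SD, n = 5 each), a log2 fold change of -1.49 (SE 0.38, 95% interval -2.31 to -0.66), with an adjusted p of 0.608 in edgeR and 0.0335 in DESeq2. Solvent birds were at 35.1 ± 22.6 CPM (n = 6), close to the mean at 5 mg/kg. Within the number classes 1 to 3 and 4 to 6 the ESR2 difference was -1.78 and -1.09. ESR1, the receptor through which yolk genes are chiefly induced, was at 67.8 ± 10.5 and 56.0 ± 21.4 CPM, and its groups overlapped (log2 fold change -0.28, 95% interval -0.78 to 0.22). For ESR1, leaving out replicate 4 of the higher dose gave -0.54 and leaving out replicate 3 gave -0.14.

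Genes known to respond to estrogen gave mixed directions. STC2, stanniocalcin 2, a secreted glycoprotein that responds to estrogen in human breast cells and to stress of the endoplasmic reticulum, had the lowest p of any named gene. Its levels were 51.4, 59.0, 38.4, 94.5 and 48.5 CPM at 0.5 mg/kg and 19.6, 13.1, 28.4, 17.6 and 15.6 CPM at 5 mg/kg. The 2 doses did not overlap, and the solvent birds, at 69.0 ± 37.1 CPM, spanned the range of the lower dose. The log2 fold change of STC2 was -1.63 (SE 0.27, 95% interval -2.22 to -1.05), with an adjusted p of 0.232 in edgeR and 3.56e-05 in DESeq2. It was -1.30 and -2.10 within the number classes, and -1.82 to -1.39 when 1 bird was left out.

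GREB1, an estrogen-induced coregulator in mammals, was at 1.95 ± 0.40 CPM at 0.5 mg/kg and 1.40 ± 0.181 CPM at 5 mg/kg, with overlap between the groups (log2 fold change -0.48, 95% interval -0.98 to 0.01). Solvent birds were at 2.38 ± 0.387 CPM for GREB1. PGR, the progesterone receptor, lay at 0.502 to 1.99 CPM and at 0.801 to 2.38 CPM (log2 fold change 0.42, 95% interval -0.53 to 1.38). Leaving out 5 mg/kg replicate 5 gave 0.11 for PGR, and leaving out 0.5 mg/kg replicate 1 gave 0.83. APOB, the structural protein of very low density lipoprotein and the source of yolk apolipoprotein, was at 3370 ± 411 and 3339 ± 1160 CPM. Its log2 fold change was -0.02 (95% interval -0.55 to 0.50), and the spread among birds was wider at the higher dose, from 1962 CPM in replicate 5 to 4923 CPM in replicate 1. MYC, a growth-promoting transcription factor, was at 27.2 to 54.6 CPM at 0.5 mg/kg and 6.07 to 35.6 CPM at 5 mg/kg (log2 fold change -0.90, SE 0.41). Solvent birds were at 12.7 ± 5.86 CPM for MYC. ZP1, an egg envelope protein that the liver of laying birds secretes, was chosen after its values were seen. It reached 542 CPM in 5 mg/kg replicate 1 and lay between 63.3 and 140 CPM in the other birds of that dose, against 29.6 to 135 CPM at 0.5 mg/kg. Its log2 fold change of 1.31 (SE 0.62) became 0.36 without replicate 1.

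Of the 42 genes in the estrogen and yolk list, 32 were in the table and 31 were tested. 13 of the 31 were above 0 and 18 below, with a median of -0.11 against 0.02 over all genes. Of the 31, 0 passed in either direction. At an unadjusted p under 0.05, 0 of them were higher and 3 lower (STC2, ESR2 and MYC), against 3.80% and 2.99% over all genes. The vitellogenin and apovitellenin genes were not analysed here by name, since the name table pairs no gene number with those symbols.

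**Figure D2:**
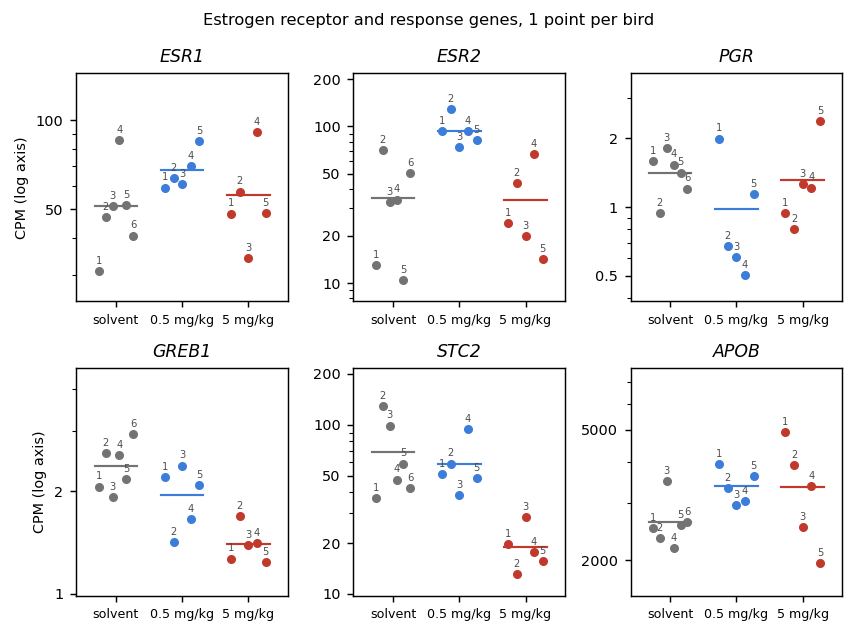
CPM (log axis) of 6 estrogen receptor and response genes in each bird; numbers beside points are replicate numbers and lines are group means (6 solvent, 5 at 0.5 mg/kg, 5 at 5 mg/kg). ESR2 and STC2 do not overlap between the doses, while ESR1, PGR, GREB1 and APOB do.

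Genes that answer to cyclic AMP and glucocorticoids gave both directions over their lists. Those given with levels in this and the next paragraph were lower in mean at 5 mg/kg. The immediate early and cyclic AMP response list had 35 of 43 genes tested, 20 above 0 and 15 below (median 0.05). Members above 0 included FOS (log2 fold change 0.85, SE 0.65) and JUN (0.47, SE 0.22). Of the 35, 0 passed the threshold. At an unadjusted p under 0.05, 0 were higher and 3 lower (KLF15, BTG2 and MYC), against 3.80% and 2.99% over all genes. PDE4B, a phosphodiesterase that breaks down cyclic AMP, is not in that list. It was at 31.7, 28.5, 33.5, 22.1 and 23.5 CPM at 0.5 mg/kg and at 9.36, 13.1, 8.72, 17.7 and 9.26 CPM at 5 mg/kg. The groups did not overlap, and solvent birds were at 15.7 ± 8.96 CPM. The log2 fold change was -1.27 (SE 0.22, 95% interval -1.75 to -0.79), with an adjusted p of 0.232 in edgeR and 1.67e-04 in DESeq2. Within the number classes it was -1.61 and -0.75. ZBTB16, a transcriptional repressor induced by glucocorticoids in mammals, spread from 4.05 to 52.3 CPM at 0.5 mg/kg and from 1.38 to 3.98 CPM at 5 mg/kg. Its groups did not overlap, but replicates 1 and 3 of the lower dose, at 4.05 and 4.54 CPM, lay just above the higher dose. The log2 fold change of ZBTB16 was -2.80 (SE 0.65), and it was -1.35 and -4.11 within the number classes.

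CEBPD, a transcription factor induced by glucocorticoids and by acute phase signals, was at 222 ± 45.2 CPM at 0.5 mg/kg and 137 ± 25.8 CPM at 5 mg/kg (log2 fold change -0.70, SE 0.18, adjusted p 0.608 in edgeR), with no overlap. SIK1, a salt-inducible kinase that cyclic AMP switches on, was at 33.6 to 175 CPM and at 19.9 to 128 CPM, with overlap. Its log2 fold change was -1.03 (SE 0.55), -1.55 without 5 mg/kg replicate 4 and -0.81 without 5 mg/kg replicate 1. Solvent birds were at 111 ± 23.8 CPM for CEBPD and at 14.4 ± 8.59 CPM for SIK1. CEBPD and SIK1 had led earlier comparisons of these birds with solvent, so their differences are descriptions. The glucocorticoid response list had 22 of 24 genes tested, 10 above 0 and 12 below, with a median of -0.02. In the list 0 passed at the adjusted threshold. At an unadjusted p under 0.05, 1 was higher (ANGPTL4, described below) and 4 lower (ZBTB16, CEBPD, TAT and PDK4), against 3.80% and 2.99% over all genes. The mean centred log2 CPM of the list was -0.04 to 0.26 in the lower dose birds and -0.36 to -0.02 in the higher dose birds. Among its members, TAT, tyrosine aminotransferase, and PDK4, a kinase that shuts off pyruvate use during fasting, were chosen after their values were seen. TAT was at 3509 ± 994 and 2105 ± 984 CPM (log2 fold change -0.74, SE 0.32), and at 2487 ± 556 CPM in solvent birds.

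PDK4 differed widely among the 5 mg/kg birds. It was at 247 to 472 CPM at 0.5 mg/kg. At 5 mg/kg it was at 23.6, 134, 30.9, 314 and 30.7 CPM, so that replicate 4 lay inside the range of the lower dose and the other 4 birds below it (log2 fold change -1.69, SE 0.67). Without replicate 4 the log2 fold change of PDK4 was -2.67, and without 5 mg/kg replicate 1 it was -1.43. Solvent birds were at 108 ± 73.4 CPM for PDK4. IGFBP1, a secreted binding protein for insulin-like growth factors that is high in fasting, was at 92.5, 96.95, 67.4, 113 and 209 CPM at 0.5 mg/kg and at 12.8, 60.6, 47.9, 51.5 and 11.3 CPM at 5 mg/kg. These groups did not overlap, and solvent birds were at 20.8 ± 21.9 CPM (log2 fold change -1.66, SE 0.49, adjusted p 0.608 in edgeR). The IGFBP1 gene was already among the leading genes of an earlier comparison of the same birds with solvent, so its difference is given as a description.

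Genes of glucose output and glycogen showed both directions. G6PC, the catalytic subunit of glucose-6-phosphatase, which releases glucose from the liver, was at 1005 to 1342 CPM at 0.5 mg/kg and at 666 to 849 CPM at 5 mg/kg, without overlap (log2 fold change -0.58, SE 0.15; adjusted p 0.608 in edgeR and 0.00773 in DESeq2). Solvent birds spanned 255 to 1448 CPM, wider than both doses together. G6PC2, a related phosphatase subunit, was at 34.0 ± 4.55 and 18.0 ± 6.03 CPM, also without overlap (log2 fold change -0.92, SE 0.21), and lay at 30.1 ± 5.14 CPM in solvent birds. PPP1R3G, a glycogen-targeting subunit of protein phosphatase 1, was at 98.8 ± 47.6 and 28.5 ± 18.7 CPM (log2 fold change -1.80, SE 0.45). In that gene 5 mg/kg replicate 4, at 58.9 CPM, lay above the lowest birds of the other dose, at 52.6 and 57.0 CPM.

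PPP1R3B, another glycogen-targeting subunit of the same phosphatase, had the opposite direction. It was at 7.70 to 15.3 CPM at 0.5 mg/kg and at 100.5, 10.97, 30.2, 12.4 and 129 CPM at 5 mg/kg (log2 fold change 2.22, SE 0.64). G0S2, an inhibitor of the main fat-splitting lipase, was at 1.58 to 162 CPM at 5 mg/kg against 1.78 to 3.44 CPM at 0.5 mg/kg. Single birds at the higher dose held 136, 1.58, 24.7, 2.31 and 162 CPM of G0S2, so that replicates 1, 3 and 5 lay above all birds of the lower dose and replicates 2 and 4 did not. ANGPTL4, an inhibitor of lipoprotein lipase, followed the same birds at 78.0, 3.69, 37.3, 3.97 and 138 CPM, against 4.57 to 15.6 CPM at 0.5 mg/kg. Log2 fold changes were 4.76 (SE 1.15) for G0S2 and 2.34 (SE 0.86) for ANGPTL4. Without 5 mg/kg replicates 1 and 5 they became 2.02 and 0.57, and that of PPP1R3B became 0.57. Solvent birds ranged from 22.5 to 174 CPM for PPP1R3B, from 4.82 to 373 CPM for G0S2 and from 5.13 to 247 CPM for ANGPTL4. For PPP1R3B and G0S2 every solvent bird thus lay above every 0.5 mg/kg bird.

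Over the whole glucose, insulin and growth hormone list, 39 of 49 genes were tested, 20 above 0 and 19 below, with a median of 0.02. In that list 0 passed, with 2 higher and 5 lower at an unadjusted p under 0.05 (3.80% and 2.99% over all genes). Fatty acid oxidation and ketogenesis had 31 of 34 genes tested, 15 above 0 and 16 below (median -0.01), with 0 past the threshold and 1 higher and 3 lower at an unadjusted p under 0.05. PPARA, the fatty acid sensing receptor that drives that programme, was at 252 ± 32.9 and 177 ± 38.0 CPM (log2 fold change -0.51, SE 0.18). KLF15 of the immediate early and cyclic AMP response list, a factor of amino acid catabolism in fasting, was at 114 ± 26.5 and 72.4 ± 13.5 CPM (-0.66, SE 0.19). Solvent birds held more KLF15 than either dose, at 152 ± 40.7 CPM.

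**Figure D3:**
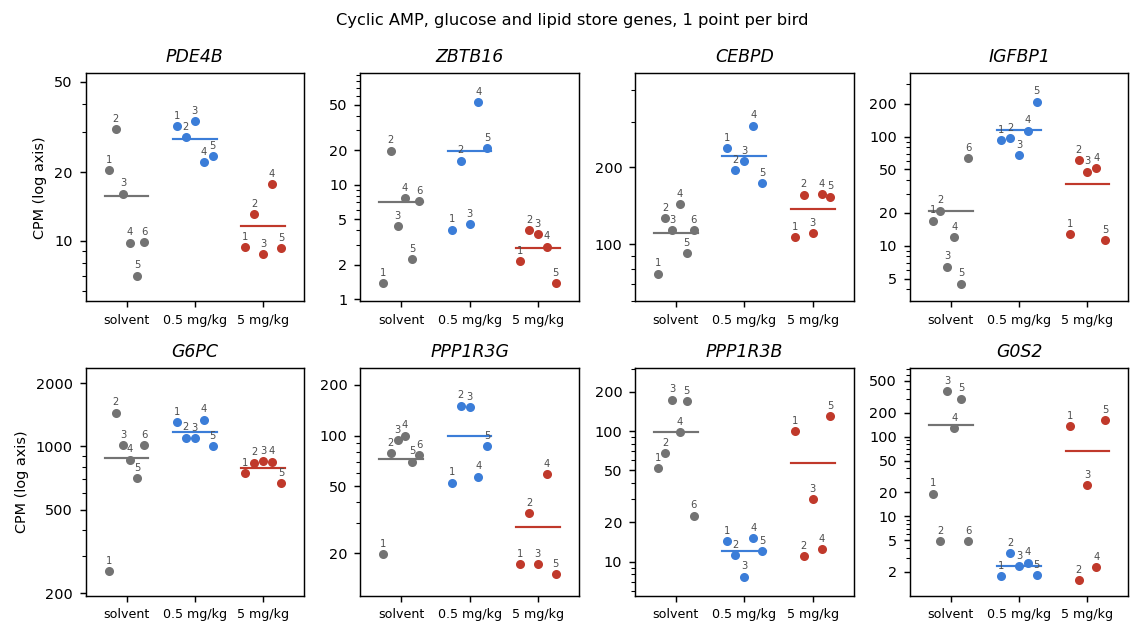
CPM (log axis) of 8 genes of cyclic AMP, glucocorticoid, glucose and fat store regulation in each bird, with replicate numbers beside the points and group means as lines. PDE4B, ZBTB16, CEBPD, IGFBP1 and G6PC do not overlap between the doses; for PPP1R3B and G0S2, 5 mg/kg replicates 1, 3 and 5 lie above the 0.5 mg/kg birds and replicates 2 and 4 do not.

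Other genes with low p and lower levels at 5 mg/kg had varied roles. MCL1, which protects cells from apoptosis, was at 159, 227, 180, 240 and 156 CPM at 0.5 mg/kg and at 100.5, 104, 125, 113 and 117 CPM at 5 mg/kg. DHTKD1, an enzyme of lysine breakdown in mitochondria, was at 191 ± 32.8 and 112 ± 15.5 CPM, and TIMP3, an inhibitor of matrix proteases, at 144 ± 30.9 and 83.0 ± 14.0 CPM. The groups did not overlap in any of these 3 genes, with log2 fold changes of -0.79 (SE 0.16), -0.77 (SE 0.16) and -0.80 (SE 0.17). DIS3L2, an exoribonuclease that degrades uridylated RNA, was at 18.3 to 48.5 CPM at 0.5 mg/kg and at a narrow 11.1 to 14.99 CPM at 5 mg/kg (-1.40, SE 0.24). UNC5B, a netrin receptor, was at 6.47 ± 1.56 and 3.71 ± 0.392 CPM (-0.81, SE 0.19). MYH15, a myosin heavy chain, was at 76.4, 27.2, 21.7, 4.82 and 1.64 CPM at 0.5 mg/kg and at 0.576 to 4.13 CPM at 5 mg/kg, with overlap (-3.79, SE 0.90). Its high birds were those numbered 1 to 3, and the difference was -4.72 in that class and -0.42 in the other.

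Genes with low p and higher levels at 5 mg/kg were mostly of low abundance. WDR60, a subunit of the dynein motor of cilia, was at 4.27, 6.61, 5.67, 4.07 and 5.25 CPM at 0.5 mg/kg and at 10.01, 11.1, 7.40, 11.4 and 9.36 CPM at 5 mg/kg (log2 fold change 0.92, SE 0.18). SLC7A1, a transporter of arginine and lysine, was at 3.44 ± 0.474 and 6.90 ± 1.59 CPM (1.0, SE 0.20). ODC1, the rate-limiting enzyme of polyamine synthesis, which uses ornithine derived from arginine, was at 3.30 ± 0.49 and 5.99 ± 1.31 CPM (0.85, SE 0.19). The groups did not overlap in WDR60, SLC7A1 and ODC1. RPS6KL1, a ribosomal S6 kinase-like protein, was at 0.949 ± 0.278 and 3.38 ± 1.56 CPM (1.83, SE 0.37), and FAIM, an inhibitor of Fas-induced apoptosis, at 5.61 ± 0.745 and 8.73 ± 0.955 CPM (0.63, SE 0.14).

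NUP93, a scaffold protein of the nuclear pore, was at 5.18 ± 0.681 CPM at 0.5 mg/kg and at 9.14 ± 1.93 CPM at 5 mg/kg, where replicate 4, at 5.76 CPM, lay inside the range of the lower dose (0.82, SE 0.18). NFKB2, a precursor subunit of the NF-kB factors, was at 15.2 ± 1.09 and 23.5 ± 4.71 CPM (0.62, SE 0.14). ZDHHC15, a protein palmitoyltransferase, was at 3.82 ± 0.607 and 6.68 ± 1.32 CPM (0.80, SE 0.18), and MAMDC4, a protein of endosomes, at 11.9 ± 1.22 and 21.3 ± 7.41 CPM (0.83, SE 0.21). For these 20 genes, 10 in each direction, edgeR's adjusted p was 0.232 to 0.608. DESeq2 called 18 (not NFKB2 or MAMDC4), and 17 had no overlap between the doses (8 above and 9 below). The shares over all genes were 0.276% called by DESeq2, 0.701% above and 0.561% below. The mean of the solvent birds lay between both dose means in 18 of the 20, beyond the 5 mg/kg mean for G0S2 and beyond the 0.5 mg/kg mean for STC2. Since the genes were chosen for the difference between the doses, nothing is read from these counts or from that order.

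Sterol and fatty acid synthesis genes varied widely among the 5 mg/kg birds. The sterol list had 24 of 28 genes tested, 20 above 0 and 4 below, with a median of 0.31 against 0.02 over all genes. Of the 24, 0 passed, and 1 was higher and 0 lower at an unadjusted p under 0.05 (3.80% and 2.99% over all genes). List scores, the mean centred log2 CPM of its genes, were 0.48, -1.43, 1.11, -0.44 and 0.47 in the 5 mg/kg birds and -0.55 to 0.24 at 0.5 mg/kg, so the higher dose held both the highest and the lowest birds. SCAP, the sterol sensor that escorts SREBP, was at 46.5 ± 10.1 and 80.4 ± 25.9 CPM (log2 fold change 0.78, SE 0.24). FDPS, which makes farnesyl diphosphate, was at 63.5 to 148 CPM at 0.5 mg/kg and at 25.6 to 566 CPM at 5 mg/kg (0.96, SE 0.62), and 0.21 without 5 mg/kg replicate 3. MVD, mevalonate decarboxylase, was at 1.04 (SE 0.60), and at 0.51 without the same bird.

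Fatty acid and triacylglycerol synthesis had 23 of 30 genes tested, 16 above 0 and 7 below (median 0.22), with 0 past the threshold. Against 2.99% lower and 3.80% higher over all genes, 0 were lower and 1 was higher at an unadjusted p under 0.05. That gene was FADS2, the delta-6 desaturase of polyunsaturated fatty acids, at 324 to 645 CPM and at 555 to 2345 CPM (1.05, SE 0.38). Without replicate 1 of the higher dose, which held the 2345 CPM, it was at 0.55. NPC1, a cholesterol transporter of lysosomes, was at 109 ± 8.06 and 75.4 ± 17.5 CPM without overlap (-0.53, SE 0.16). The lipoprotein list to which NPC1 belongs had 25 of 28 genes tested, 9 above 0 and 16 below (median -0.10). Of the 25, 0 passed, and 1 was higher and 1 lower at an unadjusted p under 0.05 (3.80% and 2.99% over all genes).

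Cell cycle genes were above 0 in 40 of the 45 tested (60 listed), with a median of 0.44. Of the 45, 0 passed, and 5 were higher and 1 lower at an unadjusted p under 0.05 (3.80% and 2.99% over all genes). RRM1, a subunit of ribonucleotide reductase, which makes DNA building blocks, was at 3.12 to 3.98 CPM at 0.5 mg/kg and at 11.2, 6.48, 4.58, 3.65 and 8.12 CPM at 5 mg/kg. 4 of the 5 birds at the higher dose thus lay above the lower dose, and replicate 4 lay inside its range (log2 fold change 0.93, SE 0.27; 0.47 without 5 mg/kg replicates 1 and 5). TYMS, thymidylate synthase, was at 0.387 ± 0.101 and 1.13 ± 0.516 CPM (1.52, SE 0.44), and CDC25A, a phosphatase that admits cells to S phase, at 0.70 ± 0.243 and 1.37 ± 0.423 CPM (0.96, SE 0.33). List scores were 1.14 and 0.67 in 5 mg/kg replicates 1 and 5 and between -0.59 and 0.10 in the other 8 dosed birds.

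Secretory pathway and unfolded protein response genes were below 0 in 41 of 52 tested (55 listed), with a median of -0.18 and individual values from -0.55 to 0.38. 0 passed in either direction, and 0 had an unadjusted p under 0.05. PDIA6, a disulfide isomerase, had the lowest p of the list, at 365 ± 104 and 260 ± 62.0 CPM (-0.49, SE 0.23). The amino acid response list, which also holds STC2 and SLC7A1, had 9 of 24 genes above 0 and 15 below (31 listed, median -0.22). Of the 24, 0 passed the threshold, and 1 was higher and 4 lower at an unadjusted p under 0.05 (3.80% and 2.99% over all genes). CHAC1 of glutathione breakdown, an amino acid stress gene, was at 2.12 to 8.44 CPM and 0.576 to 4.55 CPM (-1.39, SE 0.55).

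Genes that handle steroids and foreign compounds were tested only in part. In the list of xenobiotic receptors and enzymes, 16 of 52 genes were tested, 3 above 0 and 13 below (median -0.13, range -0.53 to 0.34), and 0 reached an unadjusted p under 0.05. The steroid metabolism list had 12 of 34 tested, 8 above 0 and 4 below (median 0.11). In this list 0 passed, and 0 were higher and 1 lower at an unadjusted p under 0.05 (3.80% and 2.99% over all genes). In it DHRS3, a retinaldehyde reductase, was at 182, 176, 160, 174 and 169 CPM at 0.5 mg/kg and at 104, 140, 85.9, 128 and 66.9 CPM at 5 mg/kg. The lower dose birds were tightly grouped, the higher dose birds all lay below them, and solvent birds were at 51.0 to 112 CPM (log2 fold change -0.72, SE 0.19; adjusted p 0.608 in edgeR).

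Clock and thyroid genes overlapped between the doses in every member tested. The circadian list had 20 of 26 genes tested, 6 above 0 and 14 below (median -0.22). Of the 20, 0 passed the threshold, and 0 were higher and 3 lower at an unadjusted p under 0.05 (3.80% and 2.99% over all genes). NOCT, a rhythmic phosphatase also called nocturnin, was at 20.6 to 29.5 CPM at 0.5 mg/kg and at 9.22, 4.40, 4.99, 21.6 and 13.4 CPM at 5 mg/kg (-1.27, SE 0.39), with replicate 4 again inside the lower dose range. CRY1, a clock repressor, was at 84.5 ± 10.98 and 63.9 ± 6.67 CPM (-0.41, SE 0.13), and HLF, a clock output factor, at 25.6 ± 8.15 and 17.9 ± 4.54 CPM (-0.52, SE 0.22). Without 0.5 mg/kg replicate 5, at 39.8 CPM, HLF was at -0.30. DIO2, which activates thyroid hormone, was at 1.39 to 9.44 CPM and at 25.3, 48.2, 15.5, 1.153 and 28.7 CPM (2.14, SE 0.71), where replicate 4 was the lowest of all 10 birds. THRA, a thyroid hormone receptor, was at 29.4 ± 1.96 and 36.5 ± 5.14 CPM (0.31, SE 0.12).

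The remaining functional lists also had 0 genes past the threshold. At an unadjusted p under 0.05 the shares over all genes were 3.80% higher and 2.99% lower. Acute phase, coagulation and complement genes were above 0 in 17 of 41 (median -0.05, 0 higher and 1 lower at an unadjusted p under 0.05), and interferon response genes in 16 of 24 (median 0.11, 3 and 1). Inflammation genes were above 0 in 14 of 21 (0.11, 2 and 0), ribosome biogenesis genes in 33 of 41 (0.11, 1 and 1) and oxidative stress genes in 18 of 38 (-0.13, 0 and 2). Hepatocyte transcription factors were above 0 in 12 of 27 (-0.02, 1 and 3), bile acid and phospholipid genes in 8 of 19 (-0.18, 2 and 1), iron and mineral genes in 7 of 24 (-0.11, 1 and 1), and thyroid genes in 7 of 11 (0.12, 3 and 0). BTG2, an antiproliferative gene of the immediate early and cyclic AMP response list, was at 268 ± 79.7 and 167 ± 51.0 CPM (-0.69, SE 0.24).

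**Figure D4:**
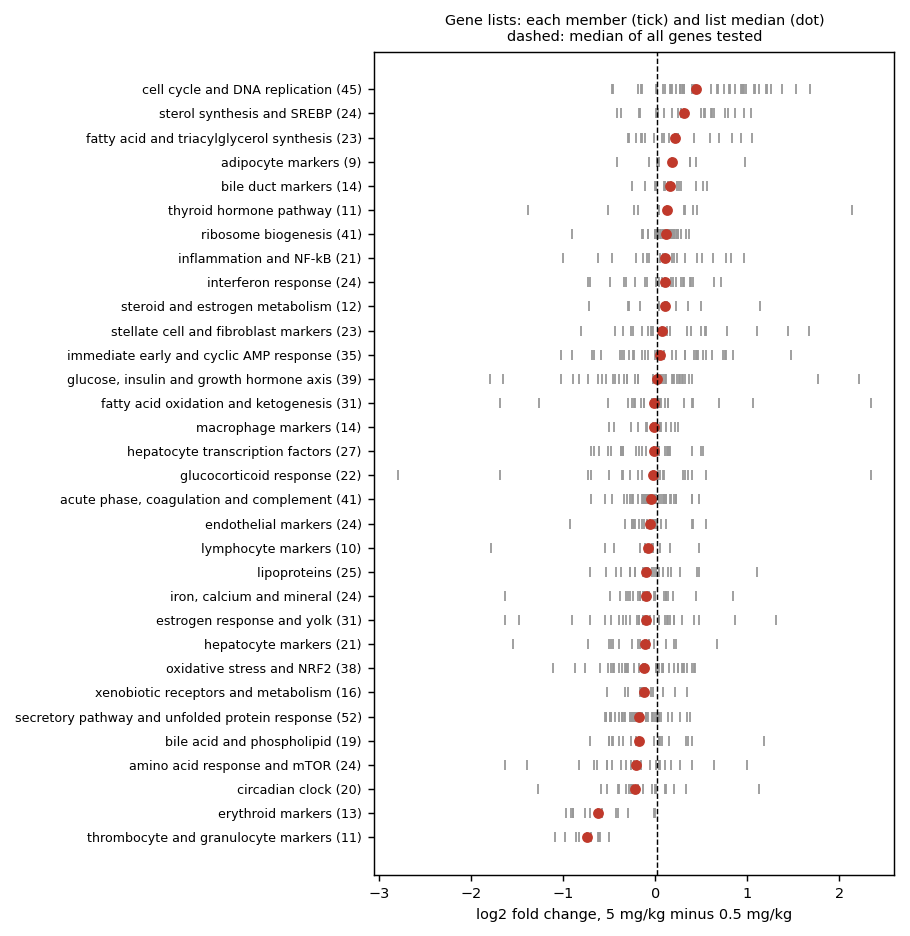
Log2 fold change between 5 and 0.5 mg/kg (x axis) of each tested member (ticks) and the median (dot) of 32 gene lists with at least 5 genes tested; the number tested is in brackets and the dashed line is the median of all genes, 0.02. Medians run from -0.74 for thrombocyte and granulocyte markers to 0.44 for the cell cycle. Every list has members on both sides of 0, except the erythroid list and the thrombocyte and granulocyte list.

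Markers of red cells and of thrombocytes and granulocytes were lower in mean at 5 mg/kg. In whole liver, fewer cells of a type and less RNA per cell cannot be told apart. All 13 erythroid markers tested were below 0 (27 listed, median -0.63), and so were all 11 thrombocyte and granulocyte markers (22 listed, median -0.74). In these lists 0 passed the threshold, and 1 and 3 were lower at an unadjusted p under 0.05, against 2.99% lower over all genes. Summed erythroid markers ranged from 252 to 1060 CPM at 0.5 mg/kg, from 186 to 880 CPM at 5 mg/kg and from 293 to 756 CPM in solvent birds. HEMGN, a Z-linked gene for a nuclear protein of red cell precursors, was at 3.77 to 5.53 CPM and at 1.93 to 3.84 CPM (-0.76, SE 0.22). SLC4A1, the anion exchanger of red cells, chosen after its values were seen, was at 64.5, 206, 310, 314 and 157 CPM and at 77.6, 33.0, 94.7, 246 and 115 CPM (-0.90, SE 0.52), with wide overlap, and EPB42 of the red cell membrane was at -0.92 (SE 0.49). Without 5 mg/kg replicate 4 SLC4A1 was at -1.41 and EPB42 at -1.39. Without 5 mg/kg replicate 2 they were at -0.65 and -0.68. The thrombocyte genes ITGB3, F13A1 and GP1BA, for an integrin subunit, a coagulation factor chain and a platelet glycoprotein, were at -0.98, -1.09 and -0.74. Scores of both lists were lowest in 5 mg/kg replicate 2, at -1.19 and -1.43, and the highest were 0.88 and 1.15 in 0.5 mg/kg replicates 4 and 3. Against that order, the erythroid score was -0.66 in 0.5 mg/kg replicate 1 and 0.61 in 5 mg/kg replicate 4.

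Markers of other cells had medians nearer to 0. Endothelial markers were above 0 in 6 of 24 (median -0.06), of which VWF, von Willebrand factor, which mammalian platelets also store, was at 5.63 to 11.4 CPM and at 2.90 to 5.11 CPM without overlap (-0.93, SE 0.23). Macrophage markers were above 0 in 7 of 14 (median -0.01) and lymphocyte markers in 3 of 10 (-0.08). Among the latter, CD247 of the T cell receptor was at 1.42 ± 0.95 and 0.417 ± 0.178 CPM, with overlap (-1.79, SE 0.52). BLNK of the lymphocyte list was higher, at 5.99 ± 0.93 and 8.385 ± 1.46 CPM, also with overlap (0.48, SE 0.17). Stellate cell markers were above 0 in 13 of 23 (0.08), bile duct markers in 11 of 14 (0.15), adipocyte markers in 7 of 9 (0.18) and hepatocyte markers in 4 of 21 (-0.11). Of the hepatocyte markers 0 were higher and 4 lower at an unadjusted p under 0.05, against 3.80% and 2.99% over all genes. These counts were 1 and 1 for lymphocyte, 2 and 0 for bile duct and 0 and 0 for macrophage markers. For endothelial, stellate cell and adipocyte markers they were 0 and 1 each. Summed levels overlapped between the doses for every one of these lists. They were 264 to 355 and 212 to 339 CPM for endothelium, 821 to 1340 and 973 to 1303 CPM for macrophages, and 48.3 to 93.7 and 40.6 to 93.9 CPM for lymphocytes. The part of cell composition in the gene differences above was not tested.

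**Figure D5:**
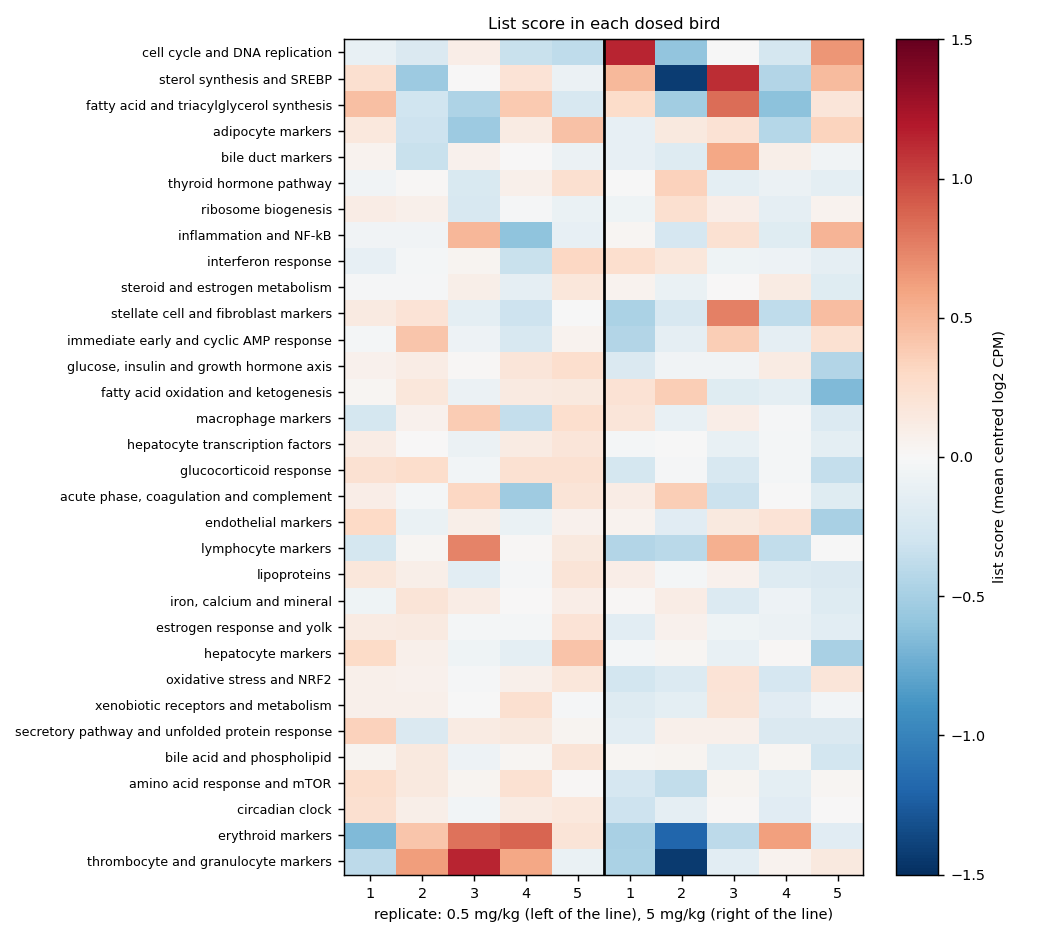
Mean centred log2 CPM of each list (rows, ordered by median log2 fold change) in each dosed bird (columns; 0.5 mg/kg left and 5 mg/kg right of the line). The widest scores belong to sterol synthesis, the cell cycle, erythroid markers, and thrombocyte and granulocyte markers. For sterol synthesis 5 mg/kg replicate 2 is lowest (-1.43) and replicate 3 highest (1.11).

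Genes that led earlier comparisons of the dosed birds with solvent are given here as a description, because these birds chose them. LOC107305801, on the Z chromosome and not given a symbol, was at 10.04 to 29.0 CPM at 0.5 mg/kg and at 29.5 to 45.6 CPM at 5 mg/kg, without overlap, against 5.68 to 18.3 CPM in solvent birds (log2 fold change between the doses 1.02). SARM1, an NAD-cleaving enzyme, was at 3.21 ± 1.30 and 12.0 ± 9.43 CPM (1.90), and BBS2 of the ciliary transport complex at 7.83 to 30.9 CPM and 22.8 to 116 CPM (1.04, and 0.43 without 5 mg/kg replicate 2). CHKA, choline kinase alpha, was at 68.1 ± 17.7 and 155 ± 114 CPM (1.18), SLC41A1, a magnesium transporter, at 84.4 ± 15.1 and 153 ± 93.8 CPM (0.85), and SBNO2, a transcriptional coregulator, at 58.6 ± 25.4 and 81.4 ± 41.7 CPM (0.47). In CHKA, SLC41A1 and SBNO2 the highest value of any dosed bird belonged to 5 mg/kg replicate 2, at 318, 311 and 152 CPM. Without that bird the log2 fold changes were 0.75 for CHKA, 0.43 for SLC41A1 and 0.13 for SBNO2. Without 0.5 mg/kg replicate 5 that of SBNO2 was 0.73. MTMR4, a lipid phosphatase, was at 31.7 ± 2.34 and 36.5 ± 4.07 CPM, both under the solvent range of 41.7 to 56.8 CPM. LMBR1L, a receptor-like membrane protein, was at 3.22 and 4.65 CPM in mean (0.53, and 0.35 without 5 mg/kg replicate 1), and RNF122, a ubiquitin ligase, at 3.03 and 0.970 CPM (-1.58, and -0.91 without 0.5 mg/kg replicate 1). Solvent means were 8.68 CPM for LMBR1L and 0.122 CPM for RNF122.

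Several genes without a symbol were among the lowest p-values, and they are named after their values were seen. LOC107321556, annotated as a long noncoding RNA on chromosome 16, had the lowest p of all genes. This gene lay under 1 CPM in every 0.5 mg/kg bird, so its levels at that dose rest on few counts. It was at 0.356, 0.337, 0.692, 0.301 and 0.608 CPM at 0.5 mg/kg and at 1.89, 2.24, 3.56, 5.63 and 2.56 CPM at 5 mg/kg, with no overlap (log2 fold change 2.73, SE 0.39, adjusted p 0.230 in edgeR and 6.6e-07 in DESeq2). LOC107321554, a protein-coding gene on the other side of TAPBP from it in the assembly Coturnix japonica 2.1, had the second lowest p with the opposite direction, at 12.8 ± 2.598 and 5.62 ± 1.25 CPM (-1.19, SE 0.19). TAPBP itself, the antigen-presentation chaperone tapasin, was at 15.4 ± 5.55 and 13.2 ± 2.34 CPM, with overlap (-0.23, SE 0.23, with a leave-one-out range of -0.36 to -0.05, the latter without 0.5 mg/kg replicate 5 and the former without 0.5 mg/kg replicate 4). LOC107307680, protein-coding on an unplaced scaffold, was abundant, at 983, 647, 1177, 1869 and 1385 CPM at 0.5 mg/kg and at 305, 561, 433, 293 and 333 CPM at 5 mg/kg (-1.66, SE 0.29). LOC107320785 on chromosome 14 was at 1783 ± 342 and 681 ± 299 CPM, also without overlap (-1.39, SE 0.34).

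The dose difference was also compared between the number classes by an interaction term. 0 of 12830 genes passed (0%) with edgeR's quasi-likelihood test, and the lowest adjusted p was 0.353. At an unadjusted p under 0.05 there were 548 genes, fewer than the 641.5 that evenly spread p-values would give. DESeq2 called 24 and limma-voom 0. TESC, a calcium-binding protein, had the lowest p of the named genes (unadjusted p 6.66e-05, adjusted p 0.427). It was at 1.96 to 2.25 CPM in 0.5 mg/kg birds and 10.5 to 19.1 CPM in 5 mg/kg birds of the numbers 1 to 3, while in the numbers 4 to 6 it was at 22.9 and 10.2 CPM and then at 2.56 and 6.36 CPM. The next were HHLA2, an immune checkpoint ligand, with a difference of log2 fold changes of 2.56, and SSTR1, a somatostatin receptor, at 2.77. Both had an adjusted p of 0.899 in the edgeR interaction test.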

How the data were processed

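The authors deposited estimated counts (expected counts, not whole numbers), 1 per transcript and bird. The submitters' processing notes name kallisto as the tool; version, reference transcriptome and build: not given in the sources used here. Estimated counts of 47418 transcript rows were summed by NCBI gene number to 20308 genes and rounded to whole numbers, which moved a count by at most 0.5. Because kallisto divides ambiguous reads among transcripts, near-identical and overlapping genes have uncertain counts, and no source used here states strandedness. Symbols and chromosomes came from the gene table of Coturnix japonica 2.1 (18900 genes matched); from its coordinates only the order of neighbouring genes was used. Each of 16 columns matched 1 sample by name.

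The 10 dosed libraries alone were fitted with edgeR 4.0.16 in R 4.3.3: filterByExpr (minimum count 10, minimum total 15; 12830 genes kept, 2456 of them without a symbol), TMM scaling, quasi-likelihood test, 8 residual degrees of freedom, Benjamini-Hochberg adjustment over all genes, threshold 0.05. Common dispersion came to 0.108 (BCV 32.8%). CPM values were scaled by TMM over all 16 libraries so that solvent birds can stand beside them; log2 CPM used a prior count of 2. Limma 3.58.1 (voom) and DESeq2 1.42.0 were alternatives, with RLE size factors, no filter, all 16 libraries in the fit, a number class covariate, each number class alone, a replicate block and each library left out. P-values set each difference against the spread between these birds.

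Named genes are the 10 higher and 10 lower symbols with the lowest p (mean of at least 1 CPM at either dose), up to 3 lowest-p members of each of 34 lists, preset estrogen genes, leading genes of earlier solvent comparisons and the lowest-p interaction genes; not all are printed, and 1 is not reported here. Members, lists and rules were chosen with earlier results of these data known. Of 1028 listed genes, 785 were in the table and 712 were tested. Of the latter, 66 (9.27%) had an unadjusted p under 0.05, against 6.79% of all 12830 genes tested. Because of how the lists were chosen, nothing is read from that gap. Muscle (2 genes tested) and exocrine pancreas (0) lists were too short for a median.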

Additional observations from a re-analysis of the deposited data

Results flagged for a closer look

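Within-group outliers were sought by the gap of the highest or lowest bird to its neighbour, relative to the group's range, in 226 groups of 5 birds (named genes, library measures and list scores at each dose). 10 were found, 7 at 5 mg/kg and 3 at 0.5 mg/kg; chance gives about 1 in 20 groups, which is no fewer than were found here.

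At 5 mg/kg, replicate 1 was the bird in question for FADS2 (2345 CPM, next 1006), ZP1 (542 CPM, next 140) and DIS3L2 (14.99 CPM, next 12.1). Replicate 2 was so for BBS2 (116 CPM, next 35.8) and HLF (25.8 CPM, next 17.1), replicate 5 for PGR (2.38 CPM, next 1.26), and replicate 4, as the lowest bird, for NUP93 (5.76 CPM, next 9.37). At 0.5 mg/kg it was replicate 5 for HLF (39.8 CPM, next 24.2), replicate 2 as the lowest for SLC7A1 (2.63 CPM, next 3.49), and replicate 3 as the lowest for the glucocorticoid response score (-0.041, next 0.224).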

How the results depend on the processing

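The counts of 0 genes higher and 0 lower held with limma-voom, RLE size factors, no filter, all 16 libraries in the fit, a number class covariate, either class alone, and 5 mg/kg replicates 1 and 5 left out together (added after seeing the data); leaving out 1 library gave 0 to 0 in each direction. DESeq2 gave 14 higher and 23 lower. The interaction count was 0 under every alternative tried, 0 to 0 when 1 library was left out, except 24 with DESeq2. Why DESeq2 differed was not tested. With a replicate block the counts were 0 and 0. The labels do not say that replicate numbers pair birds. Likeness between birds was therefore taken on log2 CPM after each gene's mean within each dose was subtracted. These centred values correlated by 0.00305 to 0.0938 in 4 pairs of the same replicate number and by -0.0599 in the other. Without centring, correlations between single dosed libraries ran from 0.9369 to 0.9658. The bird codes differ from the replicate numbers at 5 mg/kg, where replicates 4 and 5 carry codes 5 and 6. The centred values of the pair sharing code 5 correlated by 0.0309. With centred values, not every library correlated best with its own number.

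Of 78 named genes followed through 20 alternatives, 74 kept their direction in each. Many were chosen for a low p or after their values were seen, and the alternatives refit these same birds. Nothing is therefore read from that count. With numbers 1 to 3 only, PGR was at -0.12 and APOB at 0.14, and with numbers 4 to 6 only, SIK1 was at 0.21 and ZP1 at -0.17. Leaving out 1 library, APOB ranged from -0.20 to 0.12. How far depth limits genes near or under 1 CPM, such as LOC107321556, TYMS and CD247, was not tested.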
